A study of Mus musculus with 5 samples.

Results

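The genes described here encode the transforming growth factor beta (TGF-beta) ligands, the proteins that hold them in latent form, their receptors and a matrix protein named for its induction by TGF-beta. They were taken by symbol, without using any measured value: Tgfb1, Tgfb2, Tgfb3, Tgfbr1, Tgfbr2, Ltbp1, Ltbp2, Ltbp4 and Tgfbi, which are 9 of the 31053 genes of the count matrices. All 9 were detected. Single-cell RNA-seq libraries were prepared from ovaries of untreated C57BL6/J mice at 2, 3, 4, 5 and 6 wk of age, with 1 library for each age. The tissue was dissociated with trypsin, live cells were sorted as negative for the dye SYTOX Orange, and unique molecular identifiers (UMIs) were counted with 10x Genomics 3′ chemistry. All 5 groups share the strain and the absence of treatment and differ in age. How many animals a library pooled is not given in the sources used here. The tests below compare cell groups within libraries. The spread they measure is that of the difference between groups over 5 ages and not over animals of 1 age.

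TGF-beta ligands are made as precursors and leave the cell folded into a latent complex with their own propeptide. Latent TGF-beta binding proteins, the products of the Ltbp genes, tie this complex to fibrillin and fibronectin in the extracellular matrix, where integrins or thrombospondin can release the active ligand. The active dimer binds the type II receptor Tgfbr2, which phosphorylates the type I receptor Tgfbr1, and the type I receptor passes the signal to Smad2 and Smad3. In the ovary the pathway is known for acting between oocyte, granulosa and theca cells, for example on granulosa proliferation and theca steroid synthesis. LTBP2 does not bind the latent ligands as LTBP1 and LTBP4 do, and is known mainly as a microfibril protein.

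In build GRCm38 the annotation places the ligand genes Tgfb1 at chr7:25687002-25705077, Tgfb2 at chr1:186622792-186705989 and Tgfb3 at chr12:86056745-86079041. The receptor genes are Tgfbr1 at chr4:47353222-47414931 and Tgfbr2 at chr9:116084293-116175360. The binder genes are Ltbp1 at chr17:75005568-75392512, Ltbp2 at chr12:84783212-84876532 and Ltbp4 at chr7:27305136-27337692, and Tgfbi lies at chr13:56609523-56639562. All are protein-coding.

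The libraries held 7779 to 11077 cells, with 93438618 to 144609431 UMIs in all and a median of 9056 to 12424 UMIs per cell. Cells were clustered again from the counts with the 9 genes kept out of the clustering, and clusters were named from marker genes. Each class or group name below therefore means a cluster like that cell type by its marker list, and 15.7% of cells received no class (10.9% at 5 wk to 18.1% at 6 wk). The named classes were granulosa (18589 cells), stromal (14537), smooth muscle (3530), theca (1258), pericyte (856), blood endothelial (714), hematopoietic (494), surface epithelial (322), lymphatic endothelial (224) and rete ovarii (90) cells. Among granulosa cells 12.4% had no named group, from 6.89% at 2 wk to 15.9% at 5 wk. Levels are in CPM, a gene's UMIs relative to the total UMIs of its group, either per library or with the libraries summed, which can follow both the amount of a message per cell and the make-up of the group. Markers of other cells were found in most classes. The stromal list (7 genes, none at 0 in any class) summed to 6667 CPM in stromal cells, 4648 in smooth muscle, 1971 in surface epithelium, 1225 in pericytes, 912 in theca and 87.4 in granulosa cells. The part of free RNA or mixed droplets in the low values below was not tested.

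The plot of levels in 27 cell groups gives an overview. Granulosa cells, 38.6% of all cells and, being deeper, 50.9% of all UMIs, held 58.9% of Tgfbr1 UMIs and 56.4% of Ltbp1 UMIs, but 6.67% of Tgfbr2 UMIs and 2.56% of Ltbp4 UMIs. Stromal cells, 30.2% of cells and 28.2% of all UMIs, held 62.6% of Tgfbr2, 68.3% of Ltbp2, 72.8% of Ltbp4 and 71.9% of Tgfbi UMIs. Small classes stood out for single ligands. The rete ovarii cells were 0.187% of cells with 0.192% of all UMIs and held 9.10% of Tgfb2 UMIs. Blood endothelial cells were 1.48% of cells with 1.47% of all UMIs and held 10.3% of Tgfb1 UMIs, and hematopoietic cells were 1.03% of cells with 0.718% of all UMIs and held 6.51%. These shares describe the sorted suspension and not the intact ovary.

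**Figure D1:**
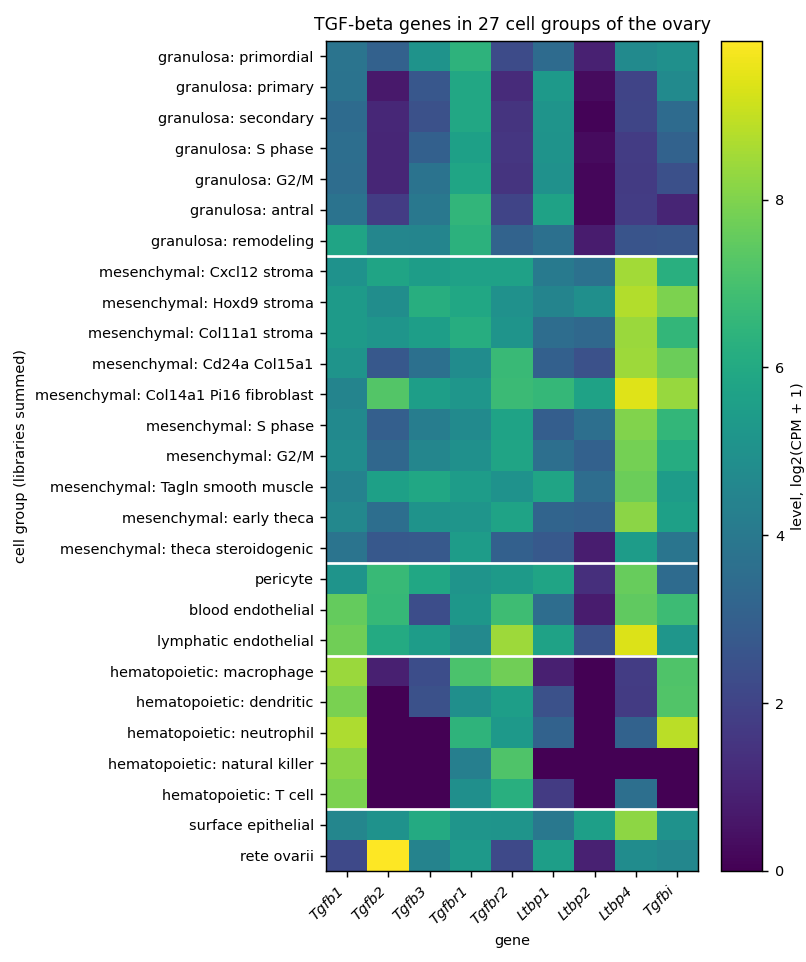
Each row is a cell group with the 5 libraries summed, each column a gene, and the colour is the level as log2(CPM + 1); columns are to be read from top to bottom, since levels of different genes are not compared. Tgfb1 is brightest in the immune and endothelial rows, Tgfb2 in rete ovarii, Tgfbr2 is dark in all granulosa rows and in theca steroidogenic cells, and Ltbp4 is bright in the mesenchymal and lymphatic endothelial rows.

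Tgfb1, the most widely studied ligand, was highest in immune and endothelial cells. Its level in hematopoietic cells was 184, 341, 315, 260.3 and 171 CPM at 2, 3, 4, 5 and 6 wk, in lymphatic endothelial cells 239.6, 259, 234, 189 and 195 CPM and in blood endothelial cells 171, 192, 205, 200.4 and 152 CPM, in the same order of ages as all values listed for the 5 libraries below. Stromal cells had 28.9, 29.6, 40.5, 33.6 and 21.6 CPM. Every library of these 3 classes lay above every stromal library, and the 3 classes overlapped among themselves. Relative to stromal cells, Tgfb1 was higher in hematopoietic cells (log2 difference 3.01 ± 0.16 (SE), edgeR adjusted p = 2.2e-19), in lymphatic endothelial cells (2.57 ± 0.17, 3.0e-16) and in blood endothelial cells (2.43 ± 0.16, 1.8e-16). These and all later differences are log2 values with their standard error, from edgeR's quasi-likelihood test with Benjamini-Hochberg adjustment over all genes, and a second number is the adjusted p. Tgfb1 was lower than in stroma in granulosa cells (-0.95 ± 0.15, 5.3e-07) and in theca cells (-1.27 ± 0.17, 8.7e-08), where the 5 libraries had 11.5, 13.5, 12.0, 15.3 and 12.0 CPM. The order of the summed levels was hematopoietic, lymphatic endothelial, blood endothelial, pericyte, stromal, surface epithelial, smooth muscle, granulosa, theca and rete ovarii. From pericyte to theca each class overlapped the next in its range over libraries.

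Tgfb2 had its highest level in rete ovarii cells. Rete ovarii cells, which line the tubules at the hilum of the ovary, had 974 CPM at 2 wk (53 cells) and 933 CPM at 3 wk (31 cells). The 4 and 5 wk libraries held 5 and 1 of these cells and the 6 wk library none, so the class entered no test. Over all 90 rete ovarii cells, 85 had a Tgfb2 UMI. With each cell thinned to 3000 UMIs, which evens out depth, the share was 82.2% (94.4% before thinning), against 1.51% (5.19% before thinning) of granulosa cells. The 2 wk library gave 781 of the 1072 UMIs.

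Among the tested classes Tgfb2 was highest in cells of the vessel wall. Pericytes had 127, 152, 108, 98.2 and 73.0 CPM, blood endothelial cells 286, 226, 118, 67.3 and 53.7 CPM and lymphatic endothelial cells 42.2, 85.0, 34.2, 72.0 and 148 CPM. Stromal cells had 38.7, 21.3, 17.9, 32.1 and 26.1 CPM, below every pericyte and blood endothelial library. The difference from stroma was 1.88 ± 0.41 (2.7e-04) in pericytes and 2.08 ± 0.42 (5.7e-05) in blood endothelial cells. The lymphatic and smooth muscle differences did not pass (1.06 ± 0.51, 0.094, and 0.92 ± 0.38, 0.063). Within the blood endothelial class the message was unevenly spread: 200 of 714 cells had a UMI, and the 10 highest cells of each library held 39.1% (5 wk) to 95.9% (3 wk) of its Tgfb2 UMIs. Granulosa cells had 3.06, 1.63, 6.55, 6.57 and 8.40 CPM, all below the stromal libraries (difference -2.40 ± 0.40, 1.9e-06). Theca cells had 38.8, 1.26, 4.61, 3.49 and 1.65 CPM. The 2 wk theca library was level with the highest stromal library and the other 4 lay below every stromal one. Over the 5 theca libraries the summed stromal markers ranged from 449 to 1966 CPM, and their part in this value was not tested. Of its 71 UMIs, 76.1% came from 10 of 104 cells. The theca difference from stroma was -1.97 ± 0.49 (9.5e-04).

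Tgfb3 had its highest summed levels among the classes in surface epithelial cells, pericytes and smooth muscle. Smooth muscle cells had 44.1, 65.1, 63.4, 55.1 and 59.5 CPM, pericytes 59.0, 82.6, 56.5, 56.2 and 54.1 CPM, surface epithelial cells 77.6, 62.4, 45.1, 64.1 and 45.5 CPM and stromal cells 34.3, 37.7, 33.3, 32.8 and 36.3 CPM. All libraries of the first 3 classes were above the stromal ones, and these 3 classes overlapped. The difference from stroma was 0.79 ± 0.20 (0.0017) in smooth muscle, 0.64 ± 0.22 (0.018) in pericytes and 0.58 ± 0.24 (0.042) in surface epithelium. The pericyte call was lost without 1 library (adjusted p 0.084 without the 3 wk library) and the surface call in 4 ways (adjusted p 0.32 without the 2 wk library, 0.066 without the 3 wk library, 0.072 without the 4 wk library and 0.091 without the 5 wk library). Lymphatic endothelial cells had 15.5, 48.6, 42.0, 57.6 and 23.4 CPM and overlapped stroma. Tgfb3 was lower than in stroma in blood endothelial cells, which had 6.55, 0, 6.72, 3.73 and 3.58 CPM (difference -3.17 ± 0.34, 1.8e-10), in theca (-2.78 ± 0.26, 1.6e-11), in hematopoietic cells (-2.57 ± 0.36, 8.2e-08) and in granulosa cells (-1.67 ± 0.20, 1.9e-09). Tgfb3 overlaps Ttll5 on the opposite strand, and Tgfb2 overlaps Gm29491, so reads of these partners could be told apart only by strand.

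**Figure D2:**
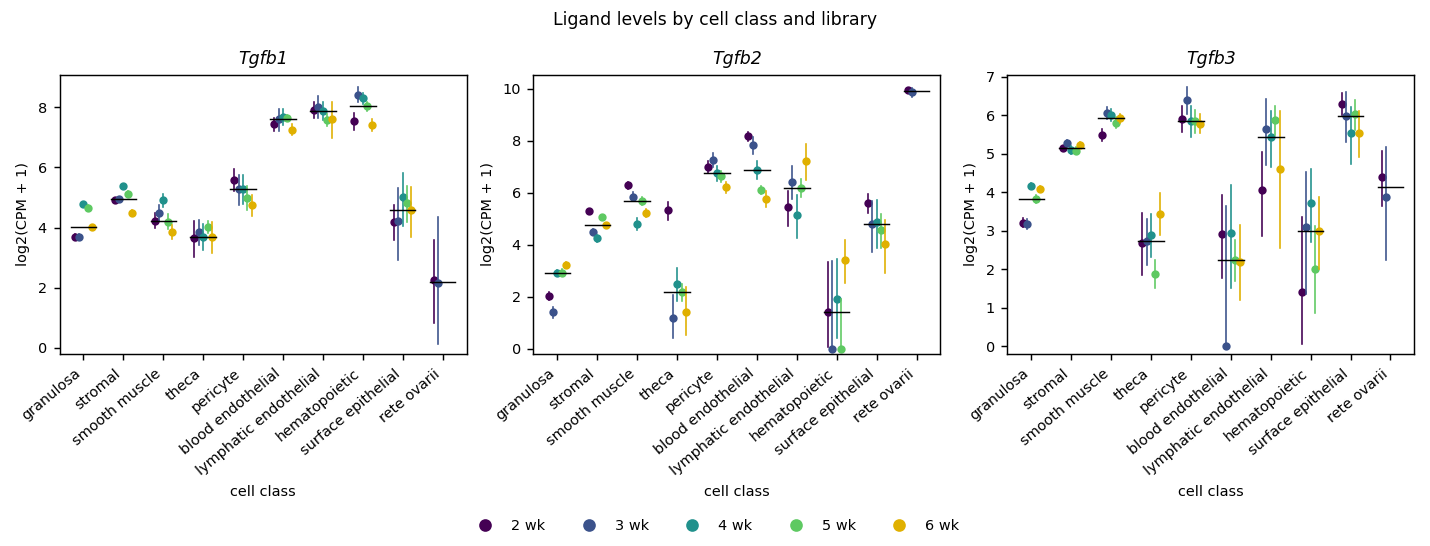
Points are the 3 ligand levels per library, as log2(CPM + 1), in each cell class; colours are ages, vertical lines are 95% Poisson intervals (counting error only) and black bars are medians over libraries with at least 10 cells of the class. The endothelial and hematopoietic points for Tgfb1, the rete ovarii points for Tgfb2 and the smooth muscle, pericyte and surface points for Tgfb3 lie at the top of their panels.

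The promoters of Tgfb1 and Tgfb2 are shown because these ligands had their highest levels in different classes. Over the 27 groups their profiles had a Pearson r of -0.313, with no test. The sequences are the 250 bases before the RefSeq start in build GRCm38.p6, 5′ to 3′ on the gene's strand, at chr7:25686752-25687001 (plus strand) for Tgfb1 and chr1:186705990-186706239 (minus strand) for Tgfb2. Capitals mark matches on either strand to GGGCGG, the core of the Sp1 motif, TATAAA, the TATA motif, and CCAAT, the CCAAT box.
Tgfb1: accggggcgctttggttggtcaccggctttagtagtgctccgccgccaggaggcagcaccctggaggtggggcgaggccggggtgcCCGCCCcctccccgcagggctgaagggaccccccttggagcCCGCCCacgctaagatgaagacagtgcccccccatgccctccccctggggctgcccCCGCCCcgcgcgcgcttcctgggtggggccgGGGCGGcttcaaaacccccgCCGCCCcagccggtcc
Tgfb2: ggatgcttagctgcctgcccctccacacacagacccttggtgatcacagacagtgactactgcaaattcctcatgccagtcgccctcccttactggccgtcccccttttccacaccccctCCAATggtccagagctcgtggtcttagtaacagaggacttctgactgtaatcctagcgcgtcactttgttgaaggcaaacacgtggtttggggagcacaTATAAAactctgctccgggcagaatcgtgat
The Tgfb1 window held 5 GGGCGG matches, at 16 to 164 bases before the start, with neither TATAAA nor CCAAT. The Tgfb2 window held TATAAA 31 bases and CCAAT 130 bases before the start, and no GGGCGG. Of 32851 RefSeq promoter windows of this length, 32.7% held GGGCGG, 12.4% TATAAA and 33.8% CCAAT. The G and C content was 75.2% for Tgfb1 and 53.6% for Tgfb2. A match describes the letters and not a bound site. Promoters of 8 of the 9 genes were matched, and none was matched for Tgfb3.

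The type I and type II receptors were distributed differently. Tgfbr1, the type I receptor, was present in every class. Granulosa cells had 57.7, 64.2, 63.2, 71.9 and 72.2 CPM and stromal cells 41.9, 39.1, 41.4, 42.5 and 42.1 CPM, with no overlap (difference 0.50 ± 0.13, 9.3e-04). Theca cells had 35.5, 41.5, 45.8, 50.8 and 34.2 CPM and overlapped stroma, with a difference of -0.03 ± 0.14 (0.91). Hematopoietic cells were highest, at 65.7, 83.3, 63.8, 82.5 and 108 CPM (difference 0.96 ± 0.15, 5.0e-07), and overlapped granulosa cells. This did not hold for every immune type. With the libraries summed, macrophages had 137 CPM and neutrophils 85.0 CPM, but T cells 29.5, dendritic cells 29.5 and natural killer cells 18.5 CPM. Lymphatic endothelial cells were lowest, at 8.88, 28.3, 18.4, 31.7 and 31.1 CPM (-1.08 ± 0.21, 5.7e-05), with fewer than 32 CPM in every library.

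Tgfbr2, the ligand-binding type II receptor, was low in granulosa cells and in the theca class, which was named from steroidogenic genes. It was not low in the early theca group described below. With the libraries summed, that group had 52.3 CPM, beside 49.8 CPM in the Cxcl12 stroma group. Granulosa cells had 2.21, 1.17, 3.38, 3.99 and 5.08 CPM and theca cells 3.82, 5.03, 3.38, 1.90 and 9.90 CPM, against 38.2, 47.8, 58.9, 72.6 and 73.9 CPM in stromal cells. No library of granulosa or theca reached the lowest stromal library. The differences were -4.40 ± 0.23 (4.9e-20) for granulosa and -3.92 ± 0.28 (9.4e-15) for theca cells. The stromal marker list in these classes was at 1.31% and 13.7% of its stromal level, beside 5.90% and 6.14% for Tgfbr2. Lymphatic endothelial cells were highest, at 342, 255, 199.6, 408 and 475 CPM, above every library of every other class. They exceeded blood endothelial cells, at 104, 89.9, 104, 122 and 94.9 CPM, by 1.58 ± 0.23 (8.4e-07). The blood endothelial difference from stroma (0.66 ± 0.21, 0.0097) was lost without 1 library (adjusted p 0.093 without the 2 wk library). In cells thinned to 3000 UMIs, Tgfbr2 was found in 62.4% (84.8% before thinning) of lymphatic endothelial, 14.0% (36.0% before thinning) of stromal and 0.913% (4.86% before thinning) of granulosa cells. Both receptors were found together in 6.23% of thinned hematopoietic cells, 5.16% of lymphatic endothelial cells, 1.45% of stromal cells and 0.206% of granulosa cells (37 of 17971). A cell without a UMI at this depth may still express the gene, so these shares are not shares of expressing cells.

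Ltbp1, the classical carrier of latent ligand, had its highest summed levels among the classes in the contractile cells and in lymphatic endothelial cells, whose libraries overlapped. Smooth muscle had 94.9, 98.6, 60.7, 44.1 and 23.8 CPM, pericytes 87.7, 79.1, 56.5, 39.7 and 37.9 CPM and stroma 19.9, 17.0, 13.6, 17.2 and 11.7 CPM. Every smooth muscle and pericyte library was above every stromal one, with differences of 2.01 ± 0.24 (7.0e-09) and 1.69 ± 0.26 (1.0e-06). Granulosa cells had 31.9, 40.5, 24.9, 24.2 and 31.3 CPM, also above every stromal library (0.79 ± 0.23, 0.0031). Theca cells had 11.5, 9.42, 5.22, 2.81 and 18.6 CPM, and their lower level (-0.99 ± 0.29, 0.0051) was not called without 1 library (adjusted p 0.18 without the 5 wk library).

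Ltbp4, a carrier tied to elastic fibers, was highest, among the classes, in lymphatic endothelial cells, followed by stromal and surface epithelial cells. Lymphatic endothelial cells had 714, 692, 649, 620.4 and 693 CPM and stromal cells 368, 349, 352, 276 and 287 CPM, without overlap (0.79 ± 0.23, 0.0053). It was found in 83.0% (95.1% before thinning) of thinned lymphatic endothelial cells. Surface epithelial cells had 292, 439.5, 369, 203 and 326 CPM, overlapped stroma and did not pass (-0.31 ± 0.23, 0.29), with a UMI in 65.3% (87.6% before thinning) of thinned cells against 61.9% (90.6% before thinning) in stroma. Granulosa cells had 9.59, 6.995, 6.03, 4.04 and 5.59 CPM and theca cells 72.1, 40.5, 36.6, 8.12 and 47.4 CPM, below every stromal library (-5.87 ± 0.27, 2.2e-21, and -3.22 ± 0.25, 1.1e-13). Pericytes (-0.89 ± 0.23, 0.0019), smooth muscle (-0.68 ± 0.22, 0.015) and blood endothelial cells (-0.67 ± 0.23, 0.015) were also lower. In blood endothelial cells Ltbp4 had 441, 344, 291, 134 and 94.3 CPM, and the summed stromal markers there ranged from 174 to 1066 CPM over the libraries, whose part was not tested. The smooth muscle call was lost without 1 library (adjusted p 0.063 without the 4 wk library), and so was the blood endothelial call (adjusted p 0.11 without the 6 wk library).

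Ltbp2 was highest, among the classes, in the surface epithelium, the single layer that covers the ovary, at 30.9, 32.7, 62.0, 54.6 and 70.1 CPM. Stromal cells had 18.3, 15.7, 9.04, 6.78 and 7.99 CPM. All surface libraries were higher (2.00 ± 0.35, 8.6e-06), and a UMI was found in 110 of 322 surface cells. Granulosa cells had 0.147 to 0.930 CPM and theca cells 0 to 0.922 CPM, lower than stroma by both tests (-4.81 ± 0.36, 5.2e-15, and -4.53 ± 0.54, 3.9e-09). The 2 wk theca library had 0 UMIs, which allows up to 1.64 CPM. Ltbp2 overlaps D030025P21Rik on the opposite strand.

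Tgfbi, a secreted matrix protein that binds collagens and integrins, was high in stromal, immune and blood endothelial cells. Stromal cells had 165, 113, 99.6, 95.6 and 78.7 CPM, hematopoietic cells 93.6, 152, 171, 96.1 and 108 CPM and blood endothelial cells 87.3, 58.9, 58.8, 127 and 99.1 CPM, and the 3 ranges overlapped. Neither the hematopoietic (0.22 ± 0.34, 0.61) nor the blood endothelial difference (-0.22 ± 0.34, 0.63) passed. The blood endothelial message was unevenly spread, with a UMI in 15.9% (27.3% before thinning) of thinned cells. At 2, 4, 5 and 6 wk, the 10 highest blood endothelial cells held 73.8%, 91.4%, 43.7% and 56.0% of the Tgfbi UMIs. Granulosa cells had 20.1, 13.6, 5.89, 3.64 and 3.76 CPM (-3.89 ± 0.35, 1.1e-12) and theca cells 10.4, 8.48, 8.29, 1.52 and 18.6 CPM (-3.81 ± 0.41, 2.8e-10). Pericytes (-3.56 ± 0.44, 1.1e-08), surface epithelium (-2.07 ± 0.43, 1.1e-04) and smooth muscle (-1.24 ± 0.32, 0.0024) were lower as well.

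**Figure D3:**
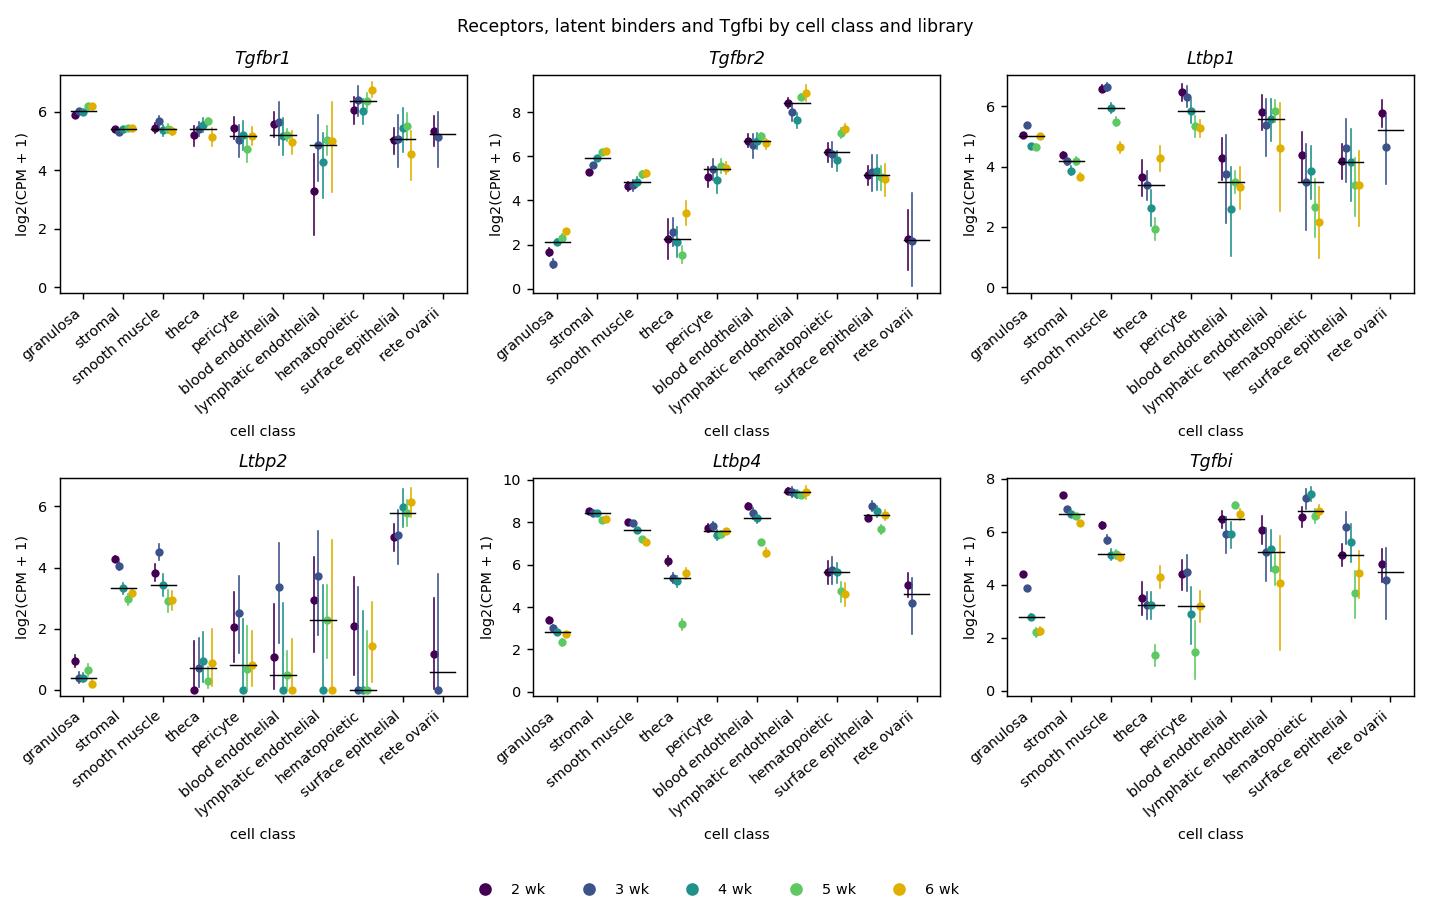
Points are levels per library, as log2(CPM + 1), of the receptors, latent binders and Tgfbi in each cell class; colours, lines and bars are as for the ligands. The granulosa and theca points lie low for Tgfbr2, Ltbp4 and Ltbp2 but not for Tgfbr1, and the lymphatic endothelial points are the highest for Tgfbr2 and Ltbp4.

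Counted over the 9 genes, granulosa cells differed from stroma in all 9 (2 higher, 7 lower), where 60.7% of all 13919 tested genes did. Theca cells differed in 8, all lower, against 44.7% of genes. Pericytes differed in 8 (33.8% of genes), hematopoietic cells in 7 (53.9%), and smooth muscle, blood endothelial, lymphatic endothelial and surface epithelial cells in 6 each (32.3%, 48.3%, 39.7% and 45.5% of genes). Since a large share of all genes was called in each comparison, the counts are not read as a trait of these genes. The median of the 9 differences was -2.40 for granulosa and -2.78 for theca cells, beside 0.0161 and -0.0548 over all genes. Blood endothelial cells differed from pericytes in 5 of the 9 (36.3% of genes) and lymphatic from blood endothelial cells in 6 (19.7%). Of the 67 calls among 90 differences between classes, 59 had the same direction in every library and 53 had no overlap between the libraries of the 2 classes. The matching shares over all genes were not computed, so these counts too are not read as a trait of the 9 genes.

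Granulosa cells were divided into primordial (656 cells), primary (2784), secondary (1897), antral (2655) and remodeling (3269) groups and the cycling groups S phase (2068) and G2/M (2962). Of the cells called G2/M by their marker list, 1066 lay in a cluster whose leading genes were histone genes, Tk1 and Rrm2, known from S phase, so that this group mixes phases of the cycle. Remodeling stands here, after the study's use of the word, for granulosa cells of early follicles that turn over while theca cells of the follicle survive. Only 154 and 171 remodeling cells came from the 2 and 3 wk libraries, against 1356, 762 and 826 from the later ones. A cluster of 1633 granulosa cells stayed unnamed and so entered neither the remodeling nor the antral group. Its best marker list was remodeling, but Vpreb3 of the antral list was among its leading genes. Ltbp2 did not pass the filter on low counts in granulosa groups and had at most 2.04 CPM in any stage and library, so 8 genes were tested.

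Tgfb1 and Tgfb2 were highest in remodeling granulosa cells. Tgfb1 had 18.1, 34.0, 71.0, 58.4 and 37.6 CPM there, 18.4, 12.3, 10.5, 14.8 and 12.4 CPM in antral and 11.5, 7.46, 10.9, 14.9 and 7.84 CPM in secondary cells. All remodeling values were above all secondary ones, and the 2 wk remodeling library alone lay within the antral range. The differences were 1.75 ± 0.22 (1.1e-07) from antral and 2.07 ± 0.23 (4.1e-08) from secondary cells. Tgfb2 had 10.7, 20.4, 19.2, 16.3 and 33.2 CPM in remodeling, 1.23, 0.216, 1.54, 2.48 and 3.85 CPM in antral and 1.04, 0.732, 2.89, 0.437 and 1.21 CPM in secondary cells. The remodeling libraries did not overlap the others. The differences were 3.32 ± 0.30 (3.9e-10) and 3.84 ± 0.35 (1.4e-09). In cells thinned to 3000 UMIs, Tgfb2 was found in 4.91% (15.6% before thinning) of remodeling and 0.374% (1.21% before thinning) of secondary cells, and Tgfb1 in 14.0% (39.3% before thinning) and 2.94% (12.0% before thinning). The remodeling group joined 3 clusters. The one with S100a6 and Tinagl1 among its leading genes had 69.2 CPM of Tgfb1 and 11.3 CPM of Tgfb2, and the one with Lox and Ghr among its leading genes had 41.7 and 37.5 CPM. The cluster with the higher Tgfb1 level was thus the one with the lower Tgfb2 level.

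Tgfb3 was lowest in primary and secondary granulosa cells. Primordial granulosa cells had 40.5, 31.9, 23.3, 19.3 and 16.8 CPM, primary 5.54, 4.81, 5.70, 5.36 and 5.85 CPM, secondary 4.58, 2.93, 4.81, 3.06 and 6.63 CPM, antral 4.61, 9.06, 18.1, 13.0 and 16.8 CPM and remodeling cells 14.1, 13.6, 23.0, 18.1 and 24.46 CPM. Primary cells were lower than primordial ones in every library without overlap (-2.46 ± 0.26, 1.3e-08). Antral cells were higher than secondary cells (1.41 ± 0.26, 1.1e-04), with overlap through the 2 wk library. The further difference of remodeling over antral cells (0.58 ± 0.21, 0.025) was not called when single libraries were left out (adjusted p 0.076 without the 3 wk library, 0.052 without the 4 wk library, 0.064 without the 5 wk library and 0.084 without the 6 wk library). G2/M cells were higher than secondary cells (1.34 ± 0.25, 7.1e-05), the only gene of the 8 called in either cycling group. Within that group the cluster led by histone genes had 7.69 CPM of Tgfb3 and the other 3 clusters 15.6 to 21.5 CPM.

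Tgfbr1 was detected at every stage. It had 105, 53.1, 66.6, 109.6 and 109 CPM in antral and 56.8, 68.6, 56.8, 59.4 and 55.9 CPM in secondary cells, a difference of 0.53 ± 0.14 (0.0036) with the 3 wk antral library below the 3 wk secondary one. The difference of remodeling over antral cells did not pass (-0.08 ± 0.14, 0.67). Tgfbr2 stayed low in all stages, with at most 11.02 CPM in any library. Remodeling cells had 5.64, 1.36, 5.58, 8.46 and 11.02 CPM and antral cells 1.23, 1.08, 2.80, 3.57 and 4.05 CPM (1.30 ± 0.29, 4.5e-04). The highest remodeling value was still below the lowest stromal one of 38.2 CPM.

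Ltbp4 and Ltbp1 differed in opposite directions between primordial and primary granulosa cells. Ltbp4 had 24.8, 31.9, 14.0, 21.2 and 26.95 CPM in primordial and 3.83, 2.25, 3.80, 1.13 and 3.00 CPM in primary cells, and Ltbp1 had 9.61, 9.68, 12.4, 7.72 and 11.8 and 35.9, 44.3, 43.0, 41.7 and 34.6 CPM. Neither pair overlapped. From primordial to primary cells Ltbp4 was lower (-3.001 ± 0.25, 1.1e-10) and Ltbp1 higher (2.14 ± 0.35, 1.6e-05). Tgfb2 was also lower in primary cells (-3.64 ± 0.49, 1.0e-06), at 0.342, 0.214, 0.9498, 1.97 and 0.632 against 7.87, 6.83, 7.75, 9.65 and 5.05 CPM. Beside these values, Ltbp4 had 276 to 368 CPM in the stromal libraries, and the part of stromal RNA in the primordial value was not tested. Ltbp1 was lower again in remodeling cells, at 41.2, 32, 8.19, 11.8 and 8.99 CPM, than in antral cells, at 46.7, 55.9, 37.9, 48.1 and 59.6 CPM (-1.74 ± 0.24, 5.7e-07). The 2 and 3 wk remodeling libraries are the high ones. Of their cells, 133 of the 154 at 2 wk and 119 of the 171 at 3 wk lay in the remodeling cluster of 787 cells. Over all ages that cluster had 20.8 CPM of Ltbp1 and 23.6 CPM of Tgfbi. By age it had 42.5, 41.4, 10.7, 10.5 and 11.8 CPM of Ltbp1 and 46.4, 44.6, 11.8, 21.6 and 6.72 CPM of Tgfbi.

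Tgfbi was higher in primordial and primary than in secondary and antral granulosa cells. It had 35.0, 27.3, 40.3, 15.5 and 15.2 CPM in primordial, 23.4, 29.6, 41.1, 17.2 and 17.9 CPM in primary, 12.9, 11.7, 10.3, 4.37 and 4.42 CPM in secondary and 3.07, 2.81, 0.722, 0.466 and 0.587 CPM in antral cells. Secondary cells were lower than primary cells in every library (-1.66 ± 0.42, 0.0062) and antral cells lower than secondary cells (-2.67 ± 0.58, 7.4e-04). Remodeling cells had 41.8, 30.6, 2.73, 3.97 and 1.72 CPM and exceeded antral cells (2.78 ± 0.58, 2.3e-04), most of all at 2 and 3 wk.

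In an alternative chosen after seeing the data, only the 4, 5 and 6 wk libraries were used, since few remodeling cells came from the earlier ones. Of 56 differences 27 were then called, 23 of them among the 26 called with all libraries. Remodeling cells still exceeded antral cells in Tgfb1 (log2 difference 2.12 ± 0.17 (SE), edgeR adjusted p = 8.3e-10), Tgfb2 (log2 difference 3.101 ± 0.25 (SE), edgeR adjusted p = 1.0e-09) and Tgfb3 (log2 difference 0.46 ± 0.12 (SE), edgeR adjusted p = 0.0038), and Ltbp1 was still lower (log2 difference -2.32 ± 0.16 (SE), edgeR adjusted p = 6.5e-11). One of the calls lost was that of a higher Ltbp4 in remodeling over secondary cells (0.97 ± 0.25, 0.0030 with all libraries, and log2 difference 0.83 ± 0.34 (SE), edgeR adjusted p = 0.056 with 3).

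**Figure D4:**
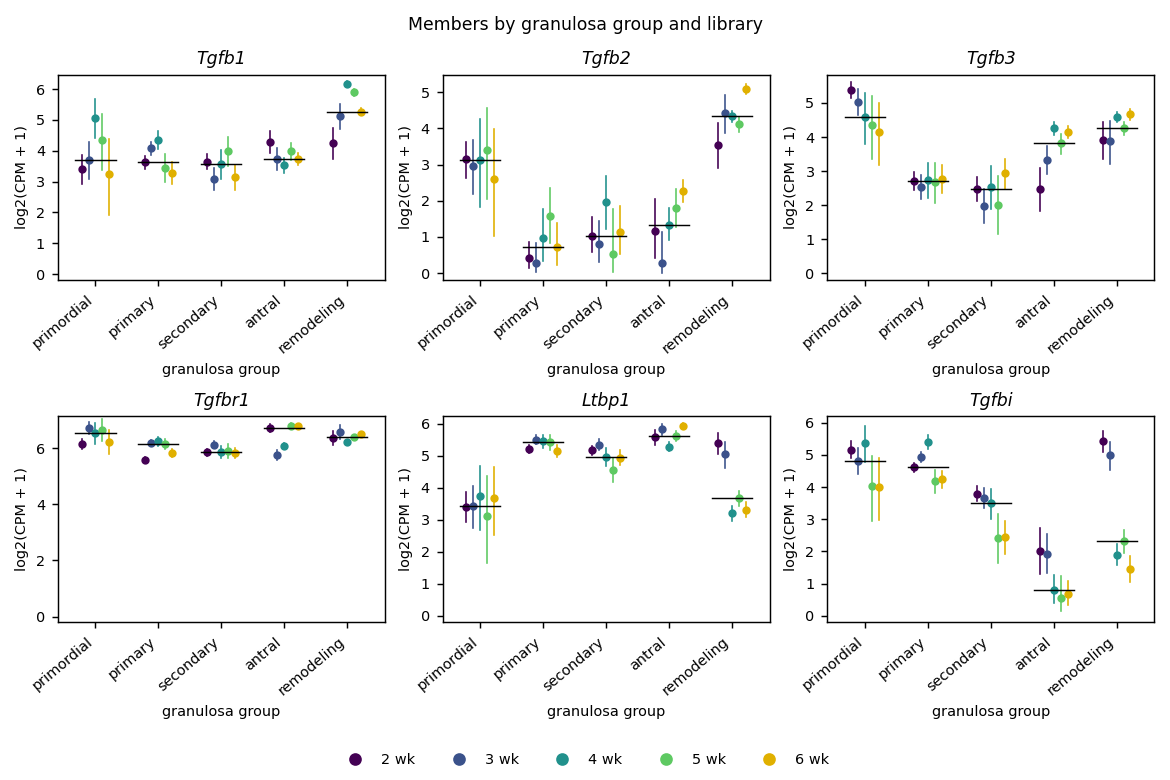
Points are levels per library, as log2(CPM + 1), of 6 genes in the granulosa groups; colours, lines and bars are as for the ligands. Tgfb1 and Tgfb2 are highest in remodeling cells, Tgfb3 is lowest in primary and secondary cells, and the 2 and 3 wk remodeling points stand above the later ones for Ltbp1 and Tgfbi.

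By count, 6 of 8 genes differed between primary and primordial cells (33.2% of 12758 tested genes), 1 between secondary and primary (16.6%), 4 between antral and secondary (33.1%), 7 between remodeling and antral (44.2%) and 7 between remodeling and secondary cells (39.4%). No gene was called in S phase over secondary cells by edgeR, where 22.2% of genes were, and 2 of the 8 had an unadjusted p under 0.05 (Tgfbr1 and Tgfb3), and none was called by DESeq2. In G2/M over secondary cells 1 was called, beside 41.4% of genes. The primary over primordial calls of Tgfbr1 (-0.40 ± 0.16, 0.049) and Tgfbr2 (-1.57 ± 0.48, 0.011) did not last when libraries were left out (adjusted p 0.086 without the 2 wk library, 0.058 without the 3 wk library, 0.054 without the 4 wk library, 0.12 without the 5 wk library and 0.11 without the 6 wk library for Tgfbr1, and 0.080 without the 3 wk library and 0.052 without the 5 wk library for Tgfbr2). The same held for Ltbp1 in antral over secondary cells (0.63 ± 0.22, 0.024), with adjusted p 0.059 without the 3 wk library, 0.12 without the 5 wk library and 0.088 without the 6 wk library, and for Tgfbr1 in remodeling over secondary cells (0.45 ± 0.14, 0.011), with adjusted p 0.076 without the 6 wk library. Of the 26 calls among 56 differences, 23 had 1 direction in every library and 14 showed no overlap, with no matching share computed over all genes.

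Mesenchymal cells formed the groups Cxcl12 stroma (3981 cells), Hoxd9 stroma (2335), Col11a1 stroma (880), Cd24a Col15a1 cells (1700), Col14a1 Pi16 fibroblasts (756), Tagln smooth muscle (4017), early theca (2040), theca steroidogenic cells (1498) and the cycling groups S phase and G2/M (1094), the latter again with 533 cells in a cluster led mainly by histone genes. Each was compared with Cxcl12 stroma, and theca steroidogenic cells also with early theca.

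Col14a1 Pi16 fibroblasts, cells like the adventitial fibroblasts found around vessels in many tissues, were the highest mesenchymal group for 6 of the 9 genes in the summed counts, and for Ltbp1, Ltbp4 and Tgfb2 also in each of the 5 libraries. For the other 3 the order turned with age: Hoxd9 stroma was higher in Tgfbi at 2 wk (469.8 against 242 CPM) and in Ltbp2 at 5 wk (20 against 17.1 CPM), and Cd24a Col15a1 cells were higher in Tgfbr2 from 4 wk on (at 6 wk 148 against 119 CPM). Ltbp1 had 101, 122, 69.1, 93.2 and 57.3 CPM there and 17.9, 15.9, 17.7, 14.7 and 12.4 CPM in Cxcl12 stroma (2.60 ± 0.26, 8.5e-11). Ltbp4 had 670.2, 675, 667, 714 and 590 against 412, 421, 413, 306 and 314 CPM (0.94 ± 0.18, 5.9e-05). Neither pair overlapped. Ltbp2, at 54.3, 73.3, 50.4, 17.1 and 74.1 against 25.8, 20.2, 4.93, 5.17 and 4.45 CPM, was also higher (2.20 ± 0.30, 1.0e-07), with overlap through the 5 wk fibroblast library. Tgfbi, at 242, 391, 316, 402 and 478 against 152, 74.6, 67.5, 45.3 and 34.2 CPM, did not overlap (2.56 ± 0.37, 2.9e-07). Tgfb2, at 235, 89.0, 67.4, 144 and 103 against 71.4, 45.4, 39.5, 57.2 and 50.8 CPM, overlapped in the 4 wk library and differed by 1.30 ± 0.28 (2.9e-04). Tgfbr2 was higher too (1.26 ± 0.19, 1.2e-06) and Tgfb1 lower (-0.66 ± 0.18, 0.0037). In all 8 genes were called, beside 30.1% of 12356 tested genes. The call of a lower Tgfbr1 (-0.41 ± 0.13, 0.011) was lost without 1 library (adjusted p 0.089 without the 2 wk library). Summed over libraries, Col14a1 Pi16 fibroblasts had 51.0 CPM of Ltbp2, beside 46.3 CPM in surface epithelium. Ltbp4 was at 675 CPM, beside 656 CPM in lymphatic endothelial cells, and Ltbp1 at 96.2, beside 59.1 CPM in the smooth muscle class. Tgfb2, at 152 CPM, was above pericytes (102 CPM) and below rete ovarii (949 CPM). Tgfbr2, at 105 CPM, was below lymphatic endothelial cells (346.5 CPM). These pairs were not tested.

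In theca steroidogenic cells, which make androgen, all 9 genes were lower than in Cxcl12 stroma, beside 58.1% of genes called in either direction, with a median difference of -2.54 (all genes 0.0145). Relative to early theca cells, 6 of 9 were lower (45.4% of genes). Tgfbr2 had 38.3, 45.9, 49.9, 57.7 and 71.8 CPM in early theca and 11.4, 11.2, 7.65, 2.76 and 16.9 CPM in theca steroidogenic cells (-2.70 ± 0.23, 3.8e-13), and Ltbp4 had 325, 318, 288, 223 and 259 and 113, 68.8, 53.3, 13.6 and 68.7 CPM (-2.35 ± 0.20, 1.3e-13). Tgfb3 had 29.3, 38.4, 33.2, 25.0 and 37.1 and 8.46, 8.56, 7.65, 2.83 and 10.4 CPM (-2.37 ± 0.22, 2.5e-12). None of these 3 pairs overlapped. Ltbp2 (-3.11 ± 0.52, 2.8e-06) and Tgfb1 (-1.05 ± 0.16, 8.0e-07) were lower as well. The lower Tgfbi (-1.30 ± 0.42, 0.0098) was lost when libraries were left out (adjusted p 0.054 without the 3 wk library and 0.088 without the 5 wk library). Tgfbr1 was at 36.4, 37.9, 47.0, 48.9 and 29.8 CPM in theca steroidogenic and 31.3, 34.4, 37.8, 38.9 and 34.3 CPM in early theca cells and did not pass (0.13 ± 0.11, 0.37). Its lower level than in Cxcl12 stroma (-0.32 ± 0.11, 0.0098) was lost without 1 library (adjusted p 0.11 without the 6 wk library). Of the 2 clusters joined as theca steroidogenic, the larger had 15.0 CPM of Ltbp4 and 2.32 CPM of Tgfbr2, and the smaller 88.4 and 14.8 CPM.

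In early theca cells 4 of 9 genes were called, all lower than in Cxcl12 stroma (27% of genes). Tgfb2 was the largest difference, at 12.8, 10.3, 7.33, 11.3 and 11.01 CPM against 71.4, 45.4, 39.5, 57.2 and 50.8 CPM with no overlap (-2.27 ± 0.31, 4.2e-07). Tgfbr1 was lower by less (-0.44 ± 0.11, 0.0013). The calls of Ltbp1 (-0.91 ± 0.29, 0.016) and Tgfb1 (-0.39 ± 0.14, 0.036) were lost when libraries were left out (adjusted p 0.064 without the 2 wk library, 0.051 without the 3 wk library and 0.080 without the 4 wk library for Ltbp1, and 0.059 without the 2 wk library, 0.064 without the 3 wk library, 0.12 without the 4 wk library and 0.14 without the 5 wk library for Tgfb1).

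The Cd24a Col15a1 cells were high in Tgfbr2 and Tgfbi and low in Tgfb2 and Tgfb3. Tgfbr2 had 50.7, 74.9, 108, 138 and 148 CPM against 34.1, 40.1, 48.9, 61.5 and 60.2 CPM in Cxcl12 stroma and was higher in 5 of 5 libraries (1.06 ± 0.18, 6.4e-06). Tgfbi had 154, 199.8, 225, 211 and 214 CPM (1.66 ± 0.35, 1.9e-04) and did not overlap Cxcl12 stroma. Tgfb2, at 12.8, 2.29, 4.35, 3.37 and 4.19 CPM, and Tgfb3, at 12.2, 8.02, 11.7, 15.4 and 11.2 CPM, were lower without overlap (-3.29 ± 0.35, 3.6e-10, and -1.95 ± 0.19, 4.3e-11). Tgfbr1 (-0.86 ± 0.11, 2.4e-08) and Ltbp1 (-1.10 ± 0.31, 0.0038) were lower too. The lower Ltbp2 (-1.24 ± 0.35, 0.0039) was lost when libraries were left out (adjusted p 0.15 without the 2 wk library and 0.076 without the 3 wk library). With it 7 of 9 genes were called, beside 36.5% of genes.

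Hoxd9 stroma had 5 called genes (16.3% of genes). Tgfbi, at 469.8, 181, 144, 124 and 108 CPM, was higher than in Cxcl12 stroma in 5 of 5 libraries (1.41 ± 0.35, 0.0032). Ltbp2, at 37.7, 39.8, 29.9, 20 and 14.9 CPM, was also higher (1.27 ± 0.29, 0.0011). Tgfb3, at 66.3, 72.0, 59.9, 87.1 and 78.1 CPM, was higher (0.65 ± 0.17, 0.0045, and 0.057 without the 6 wk library). The lower Tgfb2 (-0.91 ± 0.30, 0.031) and Tgfbr2 (-0.63 ± 0.20, 0.023) were lost when libraries were left out (adjusted p 0.095 without the 3 wk library, 0.092 without the 4 wk library and 0.092 without the 6 wk library for Tgfb2, and 0.077 without the 3 wk library, 0.10 without the 4 wk library and 0.10 without the 6 wk library for Tgfbr2). Col11a1 stroma differed in Tgfbr1 alone (9.41% of genes called). It had 75.03, 74.8, 73.9, 77.2 and 51.1 CPM of Tgfbr1 against 49.7, 42.5, 50.5, 52.6 and 52.9 CPM (0.58 ± 0.11, 3.0e-04).

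Tagln smooth muscle had 5 called genes (30.5% of genes). Ltbp1 was the largest difference, at 82.9, 85.4, 58.1, 41.9 and 23.0 CPM without overlap (1.91 ± 0.24, 1.9e-08). It was uneven among the 3 smooth muscle clusters, at 257 CPM in the smallest of 260 cells and 50.1 and 21.3 CPM in the others. That smallest cluster also had 109 CPM of Tgfb2 and 12.3 CPM of Tgfb3, beside 54.8 and 70.7 CPM of Tgfb3 in the others. Ltbp4 (-0.77 ± 0.18, 6.5e-04) and Tgfb1 (-0.60 ± 0.14, 6.1e-04) were lower. The calls of Tgfb3 (0.44 ± 0.16, 0.031) and Tgfbr2 (-0.57 ± 0.18, 0.015) were lost when libraries were left out (adjusted p 0.053 without the 3 wk library, 0.14 without the 4 wk library and 0.16 without the 6 wk library for Tgfb3, and 0.080 without the 4 wk library for Tgfbr2).

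The cycling mesenchymal groups had lower levels of Tgfb2 and Tgfb3 than Cxcl12 stroma. Tgfb2 had 10.0, 6.71, 4.80, 3.32 and 5.11 CPM in S phase and 13.1, 5.65, 7.64, 5.40 and 8.61 CPM in G2/M cells, with no overlap with Cxcl12 stroma (-3.096 ± 0.41, 1.7e-08, and -2.77 ± 0.33, 1.5e-09). Tgfb3 (-1.46 ± 0.21, 1.0e-07, and -1.10 ± 0.18, 9.7e-07) and Tgfbr1 (-1.01 ± 0.12, 3.3e-09, and -0.81 ± 0.11, 2.2e-08) were lower in both. In all, 6 genes were called in S phase (53.6% of genes) and 4 in G2/M cells (56.9%), all lower. Of the 55 calls among 90 mesenchymal differences, 49 had 1 direction in every library and 35 showed no overlap. Here too the matching shares over all genes were not computed.

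The vessel classes also differed among themselves. Blood endothelial cells exceeded pericytes in Tgfb1 (2.35 ± 0.18, 2.8e-14), Tgfbi (3.34 ± 0.46, 1.0e-07) and Tgfbr2 (1.40 ± 0.25, 9.3e-06). Pericytes exceeded blood endothelial cells in Tgfb3 (-3.81 ± 0.35, 4.6e-12) and Ltbp1 (-2.27 ± 0.34, 5.8e-07). Tgfb2 did not pass between them (0.20 ± 0.43, 0.79). Lymphatic endothelial cells exceeded blood endothelial cells in Tgfb3 (3.17 ± 0.41, 8.0e-08), Ltbp1 (1.98 ± 0.39, 1.5e-04) and Ltbp4 (1.46 ± 0.24, 9.8e-06), each in all 5 libraries without overlap. Their lower Tgfbi (-1.61 ± 0.47, 0.010) and Tgfbr1 (-0.78 ± 0.23, 0.012) were lost when libraries were left out (adjusted p 0.15 without the 5 wk library for Tgfbi, and 0.18 without the 2 wk library and 0.058 without the 4 wk library for Tgfbr1). Blood endothelial markers in the lymphatic class were at 28.8% of their blood endothelial level.

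The immune cells were too few to divide by library, and their values are sums over the 5 libraries with 95% Poisson intervals for counting error only. Macrophages (132 cells) had 338 CPM (95% interval 307 to 372) of Tgfb1, 213 CPM (95% interval 189 to 241) of Tgfbr2 and 137 CPM (95% interval 117 to 159) of Tgfbr1. Neutrophils had 85.0 CPM (95% interval 42.4 to 152) of Tgfbr1. It was at 29.5 CPM (95% interval 15.7 to 50.4) in T and in dendritic cells and 18.5 CPM (95% interval 3.82 to 54.1) in natural killer cells. T cells (74) had 245 CPM (95% interval 201 to 296) of Tgfb1, natural killer cells (34) 290.2 CPM (95% interval 213 to 386), dendritic cells (42) 236 CPM (95% interval 193 to 286) and neutrophils (30) 409.5 CPM (95% interval 307 to 536). Tgfb1 was thus found in all 5 immune types, and the intervals of macrophages and neutrophils lay above those of T and dendritic cells. Tgfbi divided them: neutrophils had 464 CPM (95% interval 354 to 597), dendritic cells 147 CPM (95% interval 114 to 188) and macrophages 143 CPM (95% interval 123 to 166), while T and natural killer cells had no UMI, which allows up to 6.81 and 18.5 CPM. The neutrophil cluster had Chil3 and F10 among its leading genes beside S100a8 and S100a9. No monocyte group was named, so other myeloid cells in this cluster were not told apart. Tgfb2, Tgfb3 and the Ltbp genes had at most 5 UMIs each in any immune type. The whole hematopoietic class, by contrast, held 148 Ltbp4 UMIs. Some of its clusters stayed unnamed, among them 36 cells led by Dcn and Nid1 and 24 cells with Amh among their leading genes.

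Between ages no test can be made, since each age is 1 library, and the 2 to 4 wk matrices were made with Cell Ranger 3.1.0 and the 5 and 6 wk matrices with 6.0.1, so that a step between these sets of libraries cannot be told apart from the software version, while steps within each set share 1 version. The ratio of 6 wk to 2 wk CPM was past 2-fold in 4 of the 9 genes in granulosa cells (13.6% of all genes with at least 50 UMIs), 4 of 9 in smooth muscle (8.74%), 2 of 9 in stroma (10.7%), 2 of 6 in blood endothelial cells (7.88%), 1 of 7 in pericytes (7.86%), 2 of 5 in hematopoietic cells (12.7%), 2 of 7 in surface epithelium (8.57%) and 1 of 6 in theca cells (6.28%). Ltbp4 was 1 of the 2 genes in hematopoietic cells (ratio 0.475), a class that held unnamed clusters with leading genes of other cell types. Their part in this ratio was not tested. The other gene was Tgfbr2, higher at 6 wk, where it had 153 CPM. Macrophages, with 213 CPM of Tgfbr2 over all ages, were 5 of 51 hematopoietic cells at 2 wk and 38 of 130 at 6 wk. The part of this make-up was not tested either. Intervals for ratios cover counting error only. Tgfbr2 in Cd24a Col15a1 cells went from 50.7 to 148 CPM, a ratio of 2.93 (95% interval 2.54 to 3.39), and in stromal cells the ratio was 1.93 (95% interval 1.82 to 2.05). Every step of age in these cells was upward. Tgfbi in Hoxd9 stroma went from 469.8 to 108 CPM, a ratio of 0.229 (95% interval 0.207 to 0.252), with most of the step between 2 and 3 wk. In Cxcl12 stroma the ratio was 0.225 (95% interval 0.199 to 0.254) and in Col11a1 stroma 0.108 (95% interval 0.0747 to 0.152), while in Col14a1 Pi16 fibroblasts it was 1.98 (95% interval 1.68 to 2.32) and in Cd24a Col15a1 cells 1.39 (95% interval 1.27 to 1.52). Tgfb2 in blood endothelial cells had a ratio of 0.188 (95% interval 0.146 to 0.240), with CPM downward at every step. There 37 of 119 cells at 2 wk and 35 of 160 at 6 wk had a UMI. The 10 highest cells held 64.9% and 65.6% of the UMIs at these 2 ages. In granulosa cells the Tgfb2 ratio was 2.74 (95% interval 2.31 to 3.27). Over the same ages, the remodeling group grew from 154 to 826 of the granulosa cells, and within it the Tgfb2 ratio was 3.097 (95% interval 1.96 to 5.20). The remodeling cells lay in different clusters at these ages. In the cluster with 133 of the 154 cells at 2 wk and 154 of the 826 at 6 wk, Tgfb2 had 12.4 and 17.4 CPM, and the cluster with 61.9 CPM at 6 wk had 2 cells at 2 wk. Ltbp1 in smooth muscle had a ratio of 0.251 (95% interval 0.216 to 0.292) and in pericytes 0.432 (95% interval 0.325 to 0.572), and Ltbp4 in blood endothelial cells 0.214 (95% interval 0.177 to 0.258). Tgfbr1 stayed within 2-fold in all 8 classes with a 6 wk over 2 wk ratio.

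**Figure D5:**
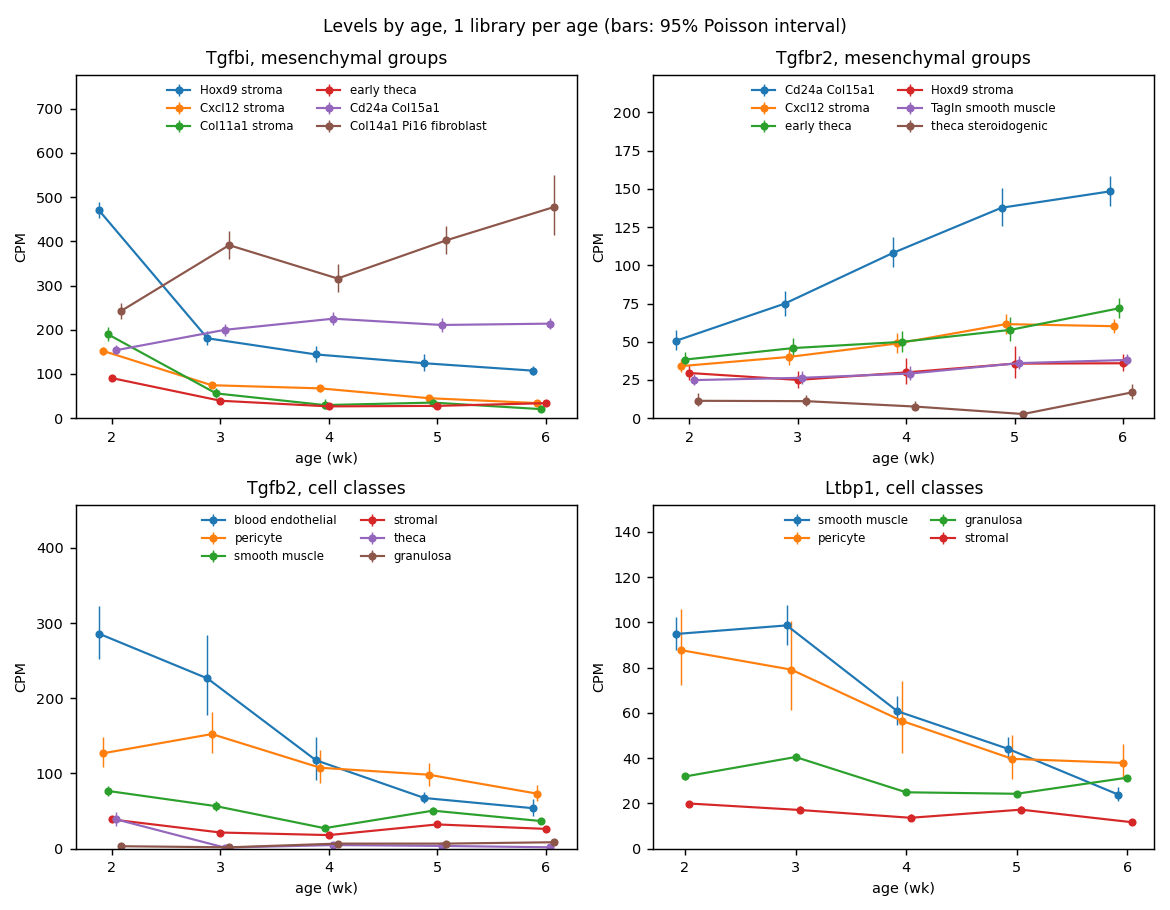
Points are CPM per library at each age, 1 library per age, with 95% Poisson intervals as bars; panels show Tgfbi and Tgfbr2 in mesenchymal groups and Tgfb2 and Ltbp1 in cell classes. Tgfbi goes down in Hoxd9 stroma and up in Col14a1 Pi16 fibroblasts, Tgfbr2 goes up in Cd24a Col15a1 cells, and Tgfb2 in blood endothelial cells and Ltbp1 in smooth muscle go down from 2 to 6 wk.

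The other genes of the pathway were followed in 4 lists: latency, storage and activation (10 genes, among them the anchors Lrrc32 and Nrros, the fibrillins and integrin subunits), other receptors (4), signal transduction and its inhibitors (8) and target genes (3). Of these 25, 24 were tested between classes and between mesenchymal groups and 20 between granulosa groups. In theca cells 18 were lower than in stroma and none higher, beside 44.7% of genes called. The target genes Fn1 (-1.53 ± 0.42) and Ctgf (-1.23 ± 0.41) were lower, as were the inhibitor Pmepa1 (-4.22 ± 0.27) and the co-receptor Eng (-2.86 ± 0.21). Theca steroidogenic cells were lower than early theca in 19 and higher in 1 (45.4% of all genes), with Pmepa1 at -3.39 ± 0.20. Granulosa cells were lower than stroma in 14 and higher in 5 (60.7% of all genes). Eng (-5.77 ± 0.19), Acvrl1 (-4.17 ± 0.22), Bambi (-3.05 ± 0.21) and Tgfbr3 (-1.45 ± 0.18), the whole list of other receptors, were lower. Tgif1, a corepressor of Smad signaling (1.92 ± 0.17), the target Ctgf (1.24 ± 0.38) and the integrin subunit Itgav (1.21 ± 0.12) were higher.

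In remodeling over antral granulosa cells 13 of 20 were higher and 1 lower, beside 44.2% of genes called in either direction. Of 7 tested genes of latency, storage and activation, 6 were higher, among them Thbs1 (1.68 ± 0.23), which can release the active ligand, and Itgb8 (1.48 ± 0.28), the subunit of an activating integrin. The targets Fn1 (2.60 ± 0.36) and Ctgf (1.30 ± 0.32) were higher, and the corepressor Tgif1 (-0.61 ± 0.09) was the one lower. In the list of signal transduction and its inhibitors, Smad3 (0.63) was higher, and so were the inhibitors Pmepa1 (0.50) and Ski (0.41). Over secondary cells 12 were higher and 1 lower (39.4% of all genes). The inhibitors Smad7 (0.71) and Ski (0.53) were among the higher ones there, and Tgif1 (-0.43) was the lower one. Both comparisons share the remodeling libraries, and some of the genes, such as Ctgf, are also known to follow other signals.

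In the vessels, Eng and Acvrl1, the co-receptor and type I receptor known for their part in blood vessel formation, were higher in blood endothelial cells than in stroma (4.08 ± 0.17 and 2.86 ± 0.21), and so were the anchors Nrros (4.82 ± 0.31) and Lrrc32 (2.82 ± 0.28). Of the 24 genes, 7 were higher and 11 lower there (48.3% of all genes called). Itgb8 (-3.31), Pmepa1 (-2.10) and Fn1 (-1.43) were among the lower ones. In lymphatic endothelial cells 7 were higher and 9 lower (39.7%), with Lrrc32 at 3.095 ± 0.31 and Fn1 at 1.07 ± 0.42 among the higher ones. Pmepa1 (-2.01) and Smad7 (-1.84) were among those lower in lymphatic endothelial cells. Eng (2.91) and Acvrl1 (0.98) were higher than in stroma in lymphatic endothelial cells too. Pericytes were higher than stroma in 4, led by Lrrc32 (3.33 ± 0.27) and Nrros (2.67 ± 0.39), and lower in 6 (33.8% of all genes). Hematopoietic cells were higher in 6 and lower in 12 (53.9% of all genes). Their highest gene was Nrros (7.19 ± 0.30), which holds latent ligand at the surface of myeloid cells. Smooth muscle was higher in 4 and lower in 6 (32.3% of all genes), and surface epithelium higher in 1 and lower in 12 (45.5%).

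Across the 27 groups, with the libraries summed, each gene's profile was compared with those of 13420 genes by Pearson r of log2(CPM + 1). The groups share libraries and differ in depth, so r is a description without a test. Tgfb1 was most like Arpc3 (0.938), B2m and Fli1, Tgfb2 most like Aldh1a3 (0.917), Meis2 and AI838599, and Tgfb3 most like Parva (0.886), Pard3b and Kcnab1. Tgfbr2 was most like Lgals9 (0.937), with Gng2 also among its closest genes, and Tgfbr1 most like Ftl1-ps1 (0.804), Hpgd and Tmem87b, of which Ftl1-ps1 is a pseudogene whose reads could come from Ftl1. Ltbp1 was most like Meg3 (0.826), Sned1 and Zdhhc1, Ltbp2 most like Ephb3 (0.954), Fmod and Mst1r, and Ltbp4 most like Mxra8 (0.954), Fstl1 and Nid1. Ifitm2 and Pltp were among the genes closest to Tgfbi. Among the 9 genes the highest r was between Ltbp2 and Ltbp4 (0.846), followed by Tgfb3 with Ltbp2 (0.735) and Tgfb1 with Tgfbr2 (0.730). Both receptors had r = -0.431 with each other, and Tgfb1 with Ltbp1 had -0.615.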

How the data were processed

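Single cells of 5 ovary libraries, 1 for each age, were measured. The deposited values are whole-number UMI counts per gene and cell, which the authors made with Cell Ranger against mm10 (GRCm38). The matrix headers name Cell Ranger 3.1.0 for 2 to 4 wk and 6.0.1 for 5 and 6 wk, and the submitters' processing notes name Cell Ranger 3.1.0 and Seurat 4.1.0. No cell annotation was used. Cells were clustered with Seurat 5.3.0 (R 4.3.3) after canonical correlation integration over libraries, without the 9 genes, of which Tgfb2, Tgfbr2, Ltbp2 and Tgfbi would otherwise have been among the variable genes. Genes correlated with them stayed in. A cluster was named by its best marker list, with at least 3 markers detected, and limits for naming were set after the clusters, but not the 9 genes, had been seen. The 9 genes, the pathway lists and the marker lists were chosen with earlier results of these data known. Scrublet as run in scanpy 1.11.5 called 2.08% to 5.01% of cells as doublets, which were kept, and 18 to 35 cell barcodes were shared by any pair of libraries.

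Counts were summed per group and library with at least 10 cells, which left out rete ovarii cells at 4 and 5 wk, and were tested with edgeR 4.0.16 (quasi-likelihood test, TMM factors, filterByExpr, library as a block), with Benjamini-Hochberg adjustment over all genes in each comparison and a threshold of 0.05. All 9 genes are reported. Pathway genes are named as the up to 4 called genes of a list with the largest differences, and some genes that this rule or the comparison of profiles would name are not reported here. In simulated smooth muscle over stromal data with 11722 genes, 181 of 200 genes changed 2-fold were recovered and 0.0868% of the unchanged ones were called. Levels are CPM with 95% Poisson intervals, and 0 UMIs allow up to 3 counts. Intervals cover counting error only. Shares of cells were computed after thinning to 3000 UMIs, leaving out shallower cells. Ratios between ages needed at least 50 UMIs. Promoters are RefSeq sequences of GRCm38.p6. The alternatives were the 9 genes left among the variable genes, another clustering resolution, merging without integration, no doublets, stricter cells (at least 1000 genes and under 10% mitochondrial UMIs), DESeq2 1.42.0, no TMM factors, no filter, no library block, leaving out each library and, chosen after seeing the data, the 4, 5 and 6 wk libraries alone for granulosa cells.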

Additional observations from a re-analysis of the deposited data

Results flagged for a closer look

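The ratio of the 6 wk to the 2 wk level went in opposite directions in different cell groups for several genes, with 95% intervals for counting error that did not include 1. Each age is 1 library, so the difference between groups was not tested, and only the highest and the lowest group of each gene are given.

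Among classes, the Tgfb2 ratio was 2.74 in granulosa and 0.0425 in theca cells, where 10 of 104 cells held 76.1% of the 71 UMIs at 2 wk. The Tgfb3 ratio was 1.94 in granulosa cells and 0.586 in surface epithelium, and the Tgfbr1 ratio 1.64 in hematopoietic and 0.649 in blood endothelial cells. Macrophages, with 137 CPM of Tgfbr1 over all ages, were 5 of 51 hematopoietic cells at 2 wk and 38 of 130 at 6 wk. The part of this change in make-up was not tested. Ltbp2 had a ratio of 2.27 in surface epithelium and 0.158 in granulosa cells, and Tgfbi one of 1.79 (95% interval 1.03 to 3.24) in theca and 0.188 in granulosa cells. Of the 45 Tgfbi UMIs of theca cells at 6 wk, 15 lay in 1 cell and 73.3% in 10 of 109 cells. Within granulosa groups the Tgfbi ratio ran from 0.0412 in remodeling to 0.763 in primary cells. Primordial and primary cells were 277 and 867 of 3108 granulosa cells at 2 wk and 50 and 398 of 3872 at 6 wk. The part of this make-up in the granulosa ratio was not tested.

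Among granulosa groups, the Tgfb3 ratio was 3.64 in antral and 0.416 in primordial cells. The Ltbp1 ratio was 1.53 in the mixed cycling group called G2/M and 0.218 in remodeling cells, of which 133 of 154 at 2 wk lay in 1 of 3 clusters. Within that cluster Ltbp1 had 42.5 CPM at 2 wk and 11.8 CPM at 6 wk. Among mesenchymal groups, the Tgfb2 ratio was 2.53 in Col11a1 stroma and 0.0425 in theca steroidogenic cells. The Ltbp2 ratio was 1.82 in Cd24a Col15a1 cells and 0.172 in Cxcl12 stroma, and the Tgfbi ratio 1.98 in Col14a1 Pi16 fibroblasts and 0.108 in Col11a1 stroma.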

How the results depend on the processing

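Of the differences between classes 67 of 90 were called, and the alternatives, leaving out each library included, gave 58 to 68. Between granulosa groups 26 of 56 were called, and the alternatives gave 21 to 30, the 3 latest libraries alone 27. Between mesenchymal groups 55 of 90 were called, with 42 to 57 under the alternatives. No called difference reversed its sign under those in which it could be computed. With the 9 genes left among the variable genes no Col11a1 stroma group was named, so its differences were not computed. The comparisons of cell groups were paired within libraries by the library block, and the lowest counts, 58, 21 and 42, came without it. Leaving out 1 library gave 62 to 65 calls between classes, 22 to 28 between granulosa groups and 49 to 56 between mesenchymal groups. Of the age ratios 52 were past 2-fold, with 43 to 61 under the other alternatives and 31 with at least 200 UMIs, where fewer ratios could be formed. Between ages no test, paired or not, could be made, since each age is 1 library. Class levels rest on as few as 13 cells (lymphatic endothelial cells at 6 wk), and Ltbp2 in granulosa and theca cells was near the limit of detection.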
